A study of Mus musculus with 8 samples.

Results

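The mitochondrial chromosome of the mouse carries 37 genes, and the RNA of all 37 was followed here in brown fat with and without adenylyl cyclase 3 in adipocytes. The genes were chosen by position: every gene of the deposited table that the annotation places on the mitochondrial chromosome and whose symbol begins with mt-, which gave 37 of the 54385 genes listed. They comprise 13 messenger RNA genes, 2 ribosomal RNA genes and 22 transfer RNA genes. The plus strand of the reference carries 12 messengers, both ribosomal RNAs and 14 transfer RNAs, and the minus strand carries mt-Nd6 and 8 transfer RNAs.

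The study sequenced polyA RNA of brown adipose tissue from 20-week-old C57BL/6N mice on chow diet. The cKO group comprised 4 libraries from Adcy3-FL/FL mice with 1 Adipoq-Cre allele (Adipoq-wt/cre), in which the Adipoq promoter drives Cre recombinase in fat cells. The WT group comprised 4 libraries titled WT, and 3 of these have the genotype Adcy3-FL/FL with no Cre (Adipoq-wt/wt). The genotype entry of WT replicate 4 also lists the Cre, against its title. All mice of both groups carry floxed Adcy3 alleles, so the WT tissue is a floxed tissue. The tissue fields name interscapular brown fat and the design text names inguinal brown fat, and the molecule field reads total RNA where the design text reads polyA. Nothing states that the replicates of a group are separate animals, so every p-value here reflects library-to-library spread, which may be partly technical.

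Mitochondrial DNA is transcribed from both strands into long precursors that are cut at the transfer RNAs, which lie between most messengers and ribosomal RNAs. The messengers then receive poly(A) tails inside the organelle, and for some of them the tail completes the stop codon. All 13 encode membrane subunits of the oxidative phosphorylation system: mt-Nd1 to mt-Nd6 and mt-Nd4l of complex I, mt-Cytb of complex III, mt-Co1 to mt-Co3 of complex IV, and mt-Atp6 and mt-Atp8 of complex V. Brown fat is packed with mitochondria, whose respiratory chain generates the proton gradient that uncoupling protein 1 dissipates as heat. Poly(A) selection captures the messengers, and it limits what can be said of ribosomal and transfer RNA, whose levels below are those in polyA libraries. In human cells the ND6 messenger largely lacks a poly(A) tail, and whether the mouse messenger behaved the same way was not tested here.

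Library totals ran from 10713043 to 16243318 estimated counts in cKO and from 12977094 to 32437214 in WT. Adcy3 itself stood at 17.95, 20.9, 25.3 and 21.5 CPM (counts scaled to a common library total, TMM-normalised) in the cKO libraries, against 112, 118, 61.7 and 118 CPM in the WT libraries, so the library with the conflicting genotype entry, WT replicate 4, lay among the WT values. The edgeR log2 fold change was -2.26 ± 0.21 (SE, adjusted p = 0.000925). Brown adipocyte markers had a sum over 8 genes of 3990 to 6930 CPM in cKO and 4492 to 5628 CPM in WT. Means over all libraries were highest for Ucp1 (2869 CPM) and Cidea (1368 CPM) and lowest for Zic1 (9.54 CPM). Skeletal muscle markers varied most, from 195 to 11254 CPM over 14 genes in cKO and from 74.1 to 8844 CPM in WT, and were highest in cKO replicate 1 and WT replicate 4.

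The ends of the messengers show how closely the genes are packed. The sequences are from GENCODE release M21 transcripts (build GRCm38). mt-Co3 (chrM:9361-9390, plus strand), mt-Nd4 (chrM:11515-11544, plus strand) and mt-Cytb (chrM:15259-15288, plus strand) are the 3 messengers that end in a lone T, to which the poly(A) tail adds the rest of a stop codon. mt-Nd6 (chrM:13552-13581, minus strand) ends in a complete stop codon. Their last 30 bases are shown for this difference, with the encoded stop letters in capitals.
mt-Co3: tatacgtctccatttattgatgaggatctT
mt-Nd4: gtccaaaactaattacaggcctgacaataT
mt-Cytb: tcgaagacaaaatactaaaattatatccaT
mt-Nd6: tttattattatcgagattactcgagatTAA
Start codons varied as well: 4 messengers do not begin with ATG (mt-Nd1 with GTG, mt-Nd2 with ATA, mt-Nd3 with ATT and mt-Nd5 with ATC).

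Of the 37 genes, 9 neighbouring pairs overlap. The longest overlap, 43 bases, joins mt-Atp8 and mt-Atp6, which are translated from a shared messenger. mt-Atp8 (chrM:7766-7969, plus strand, 204 bases) is printed whole because it showed the lowest p of the 34 genes tested, with the bases that also belong to mt-Atp6 in capitals.
mt-Atp8: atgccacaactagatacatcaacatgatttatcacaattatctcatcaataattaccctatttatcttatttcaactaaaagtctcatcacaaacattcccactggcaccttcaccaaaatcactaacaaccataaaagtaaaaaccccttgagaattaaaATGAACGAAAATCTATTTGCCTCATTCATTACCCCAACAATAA
The other long overlaps are 7 bases between mt-Nd4l and mt-Nd4, also on a shared messenger, and 14 bases between mt-Nd5 and mt-Nd6 on opposite strands. Reads in these overlaps cannot be assigned with certainty, and the labels do not state whether counting used strand.

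Mean levels of 12 of the 13 mitochondrial messengers were higher in cKO brown fat than in WT, by up to 1.62-fold for mt-Atp8, but no mitochondrial gene passed the test across all genes. In edgeR's quasi-likelihood test 34 of the 37 genes were tested and 0 were called at an adjusted p under 0.05, against 10 of 14553 genes overall (0.0687%). The lowest adjusted p among them in edgeR was 0.393. An unadjusted p under 0.05 was found for 13 of the 34 (11 higher and 2 lower in cKO), where 5.60% of all genes reached it (2.15% higher and 3.45% lower). Groups did not overlap for 11 of the 34 (10 above and 1 below WT), against 3.50% of all genes. The median log2 fold change of the 34 was 0.26, beside 0.01 over all genes tested. These genes are transcribed jointly and are not independent of each other.

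By class the counts were as follows, and the classes were not tested against each other. Of the 13 messengers, 12 had a positive log2 fold change, with a median of 0.36, and 6 had an unadjusted p under 0.05, all higher in cKO. Both ribosomal RNAs were positive, with values of 0.24 and 0.22. Of the 19 transfer RNAs tested, 9 were positive and 10 negative, with a median of 0.00, where 51.8% of all genes were positive. Other tools gave other counts: DESeq2 called 6 of the 34 (mt-Nd1, mt-Nd2, mt-Atp8, mt-Te and mt-Ty higher, mt-Ts1 lower), where it called 0.316% of all genes, while limma-voom called 0, with 0.0687% of all genes called, and also 0 with library quality weights (0.0893%). edgeR without a filter on low counts called 5 (0.262% of all genes). Whether fewer cells of a type or less RNA per cell lay behind any difference cannot be told apart in bulk tissue.

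**Figure D1:**
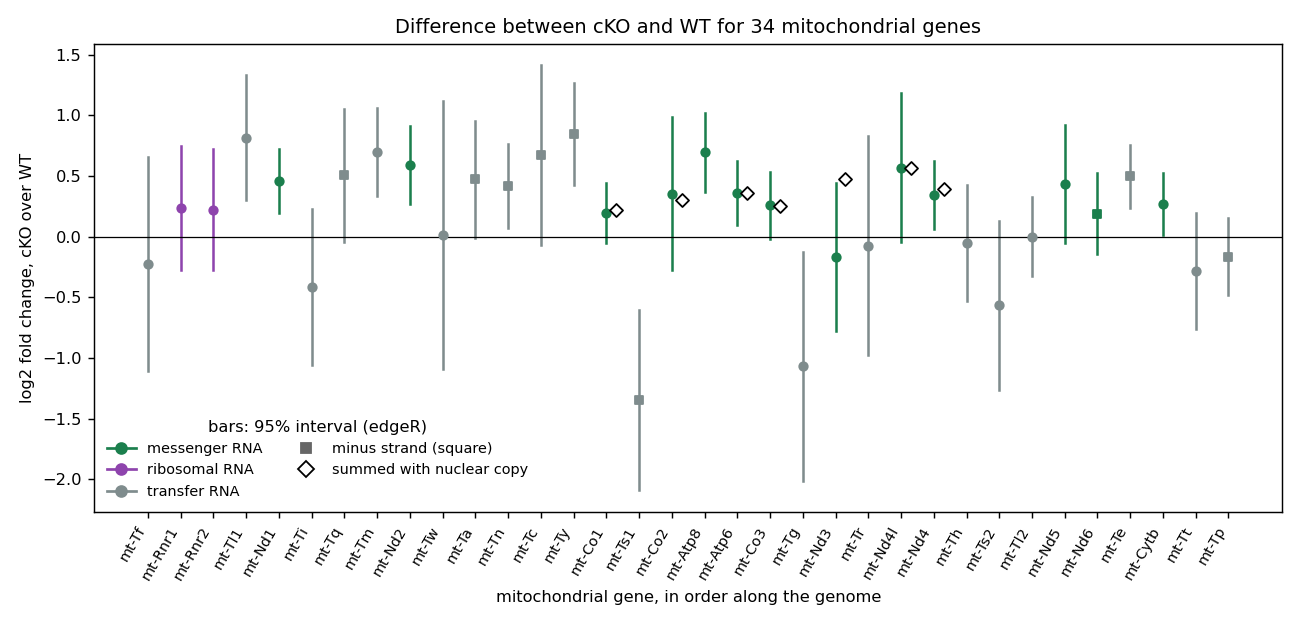
Log2 fold change, cKO over WT, of the 34 tested mitochondrial genes in genome order, with 95% intervals from edgeR; colours mark the RNA class, squares the minus strand, and open diamonds the value after a messenger was summed with its nuclear copy. Messengers sit above 0 except mt-Nd3, whose diamond lies at 0.47, and mt-Ts1 is the lowest at -1.35.

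The complex I messengers encode subunits of the membrane arm, which moves protons. mt-Nd1 stood at 14033, 18114, 16048 and 17132 CPM in cKO, against 10521.5, 12372.5, 12657 and 11936 CPM in WT. Every cKO library was above every WT library, with a log2 fold change of 0.46 ± 0.12 (SE) and an edgeR adjusted p of 0.666. mt-Nd2 stood at 16835, 20649, 19259 and 20547 CPM in cKO, against 12857.5, 13777, 9558 and 15092 CPM in WT. Its groups did not overlap either, and its log2 fold change was 0.59 ± 0.15 (SE, edgeR adjusted p = 0.538). Among all genes tested, every cKO library was above every WT library for 1.23%.

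mt-Nd4, an antiporter-like subunit as are mt-Nd2 and mt-Nd5, stood at 27155, 31841, 30339 and 30813 CPM in cKO and at 23598, 23843, 19432 and 27603 CPM in WT. Only cKO replicate 1 and WT replicate 4 overlapped, and the log2 fold change was 0.35 (edgeR adjusted p = 0.882). mt-Nd4l, a small subunit read from the same messenger, stood at 4504, 4886, 3798 and 5203 CPM in cKO and at 3625, 3343, 1463 and 3967 CPM in WT. WT replicate 3 was the low library for mt-Nd4l, and the log2 fold change was 0.57 (edgeR adjusted p = 0.886). mt-Nd5 stood at 12914, 15833, 14375 and 16009 CPM in cKO and at 13881.5, 10928, 6003 and 12887 CPM in WT. WT replicate 3 was again low, and the log2 fold change of mt-Nd5 was 0.44 (edgeR adjusted p = 0.886).

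mt-Nd6 is the only messenger on the minus strand. It stood at 3809.7, 4457, 5104 and 4304 CPM in cKO and at 4249, 3292, 3179.9 and 4762 CPM in WT. The groups overlapped, and the fold change was 0.19 on the log2 scale (edgeR adjusted p = 0.901). mt-Nd3 was the only messenger with a negative value, at -0.16 (edgeR adjusted p = 0.965): 1585, 2222, 3704 and 2007 CPM in cKO, against 2108, 2635, 3648 and 2277 CPM in WT. That sign depended on a nuclear copy described further on.

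mt-Cytb, the only mitochondrial subunit of complex III, stood at 29369, 35164, 33389 and 35287 CPM in cKO and at 27931, 28119, 24824 and 29895 CPM in WT. The log2 fold change was 0.27 (edgeR adjusted p = 0.884), and only cKO replicate 1 lay below the highest WT library. For complex IV, mt-Co1 encodes the subunit that holds the oxygen-reducing site. mt-Co1 was the most counted gene of the 37, at 61979, 62558, 61238 and 65651 CPM in cKO and 55849.8, 54544, 48770.2 and 60229.8 CPM in WT. Its groups did not overlap, but its log2 fold change was small, 0.20 (edgeR adjusted p = 0.890). mt-Co2, whose product accepts electrons from cytochrome c, stood at 15579, 19229.5, 29402 and 22228 CPM in cKO and at 14568, 11049, 26365 and 15582.5 CPM in WT. Replicate 3 of each group was high for mt-Co2, and the log2 fold change was 0.36 (edgeR adjusted p = 0.901). mt-Co3, the other core subunit, stood at 23361, 29890.1, 28608 and 26549.5 CPM in cKO and at 20869.6, 21003, 25975 and 22714 CPM in WT. The groups overlapped, and the fold change was 0.26 on the log2 scale (edgeR adjusted p = 0.886).

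The complex V messengers encode the membrane part of ATP synthase. mt-Atp8 stood at 10292, 13481, 10497.5 and 12034 CPM in cKO, against 7473, 6759, 5669 and 8686 CPM in WT. It averaged 11576 ± 1489 CPM in cKO and 7147 ± 1266 CPM in WT (SD, n = 4 each), with a log2 fold change of 0.70 ± 0.15 (SE) and an edgeR adjusted p of 0.393. mt-Atp6, which forms the proton channel with the rotor ring, stood at 30562, 39590.5, 36893 and 35716 CPM in cKO, against 27399, 25729.5, 29912 and 28209 CPM in WT. Neither gene's groups overlapped, and the log2 fold change of mt-Atp6 was 0.36 ± 0.12 (SE, edgeR adjusted p = 0.867).

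**Figure D2:**
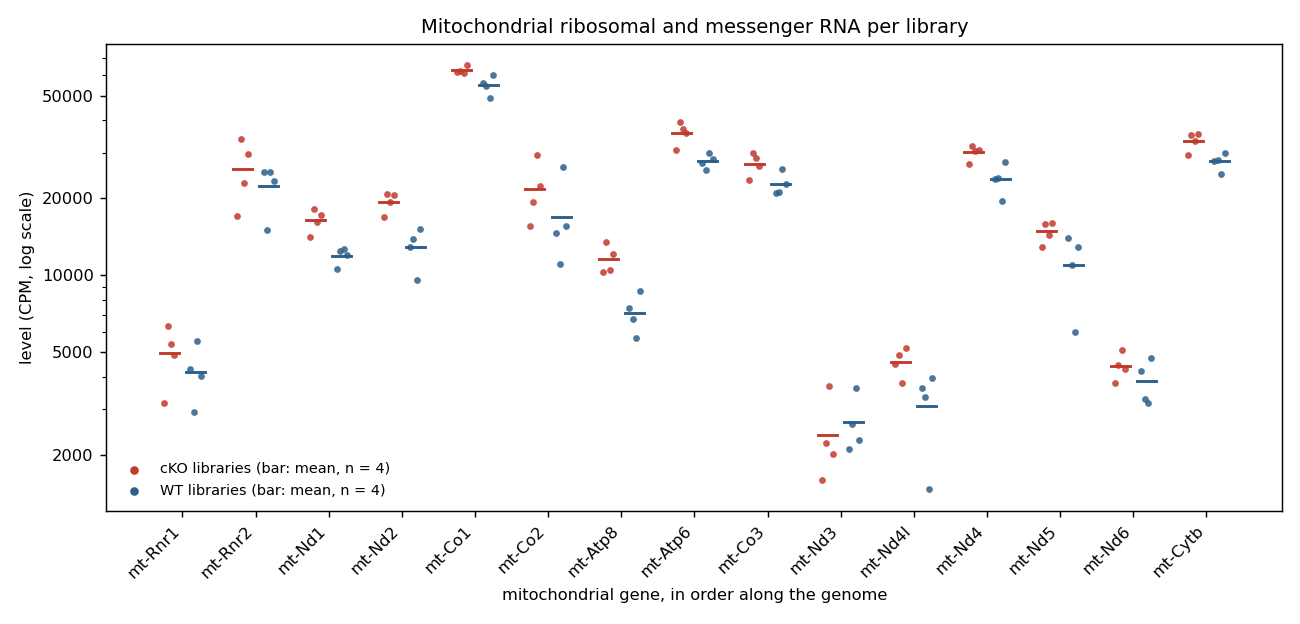
Level of each mitochondrial ribosomal and messenger RNA in every library (CPM, log axis), in genome order, with cKO left of WT and bars at the mean of 4 libraries. mt-Co1 is the highest messenger and mt-Nd3 the lowest on average. On this TMM-scaled level all cKO points lie above all WT points for mt-Nd1, mt-Nd2, mt-Co1, mt-Atp8 and mt-Atp6.

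Part of the mitochondrial genome is copied on chromosome 1, and counts were assigned to that copy as well as to the messengers. 7 annotated pseudogenes within chr1:24611535-24616197 (build GRCm38, minus strand, 4663 bases) share at least 50% of their 31-base sequences with a mitochondrial gene. Of these, 6 had counts, and together the copies held 4.35% as many counts as the 37 genes. Gm28661 matches mt-Co2 over 681 bases with 0 differences. A stretch of 60 bases is shown from mt-Co2 (chrM:7634-7693, plus strand) and from Gm28661 (chr1:24614885-24614944, minus strand), since no read inside it can be told apart by sequence.
mt-Co2: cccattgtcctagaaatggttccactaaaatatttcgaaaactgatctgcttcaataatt
Gm28661: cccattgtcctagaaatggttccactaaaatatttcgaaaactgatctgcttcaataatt
Gm29216 matches 492 bases of mt-Co1 with 6 differences, T1056A, C1057T, A1059G, A1060G, C1062A and A1066T, counted from 1 at the 5′ start of mt-Co1, with the base of mt-Co1 first. All 6 lie at one end of the copy, shown with the differing bases in capitals for mt-Co1 (chrM:6381-6402, plus strand) and Gm29216 (chr1:24616176-24616197, minus strand).
mt-Co1: ggTCtAAcCggaAttgttttat
Gm29216: ggATtGGcAggaTttgttttat

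The split between a messenger and its copy differed from library to library. Gm28661 took 36.4%, 40.7%, 8.81% and 27.5% of the summed counts of itself and mt-Co2 in cKO, and 36.4%, 52.7%, 6.30% and 31.2% in WT. Replicate 3 of each group was the low one, and in these libraries mt-Co2 alone was high. After summing, mt-Co2 stood at 24499.9, 32431, 32242 and 30677 CPM in cKO and at 22913, 23378, 28137 and 22655 CPM in WT, and the log2 fold change was 0.30 in place of 0.36. Gm29216 took 1.24%, 7.76%, 9.78% and 4.75% of the pair with mt-Co1 in cKO, and 4.05%, 3.40%, 8.06% and 2.45% in WT.

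For mt-Nd3 the copy took 44.1% of the pair on average in cKO and 13.9% in WT, with overlapping ranges. Its copy Gm28438, chosen for naming after its values were seen, differs at 1 of 345 bases (T3C). Gm28438 stood at 1459.7, 3054, 858 and 2154 CPM in cKO, against 569, 291, 299 and 460.1 CPM in WT, which was 47.9%, 57.9%, 18.8% and 51.8% of the pair in cKO and 21.3%, 9.95%, 7.57% and 16.8% in WT. Every cKO level of Gm28438 was above every WT level, at a log2 fold change (± SE) of 2.22 ± 0.44 and an edgeR adjusted p of 0.493. Summed with its copy, mt-Nd3 stood at 3045, 5276, 4562 and 4160.4 CPM in cKO and at 2677, 2926, 3946 and 2737 CPM in WT. Its log2 fold change was then 0.47 in place of -0.16 (edgeR adjusted p = 0.879).

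**Figure D3:**
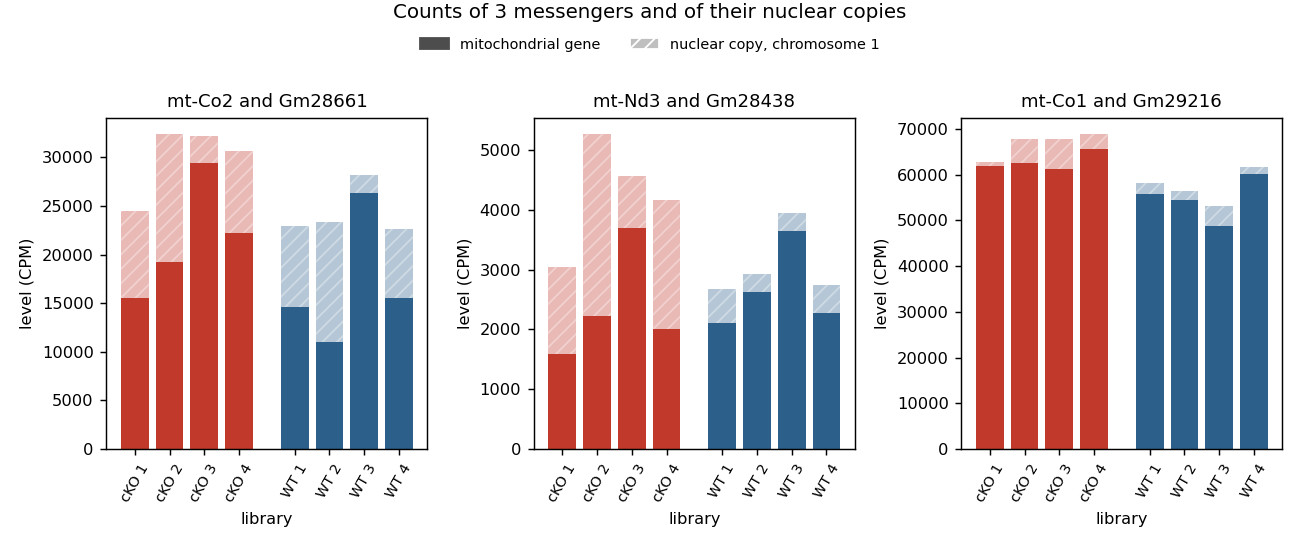
Level (CPM) of mt-Co2, mt-Nd3 and mt-Co1 in each library as solid bars, with the level of the nuclear copy stacked on top as hatched bars, cKO libraries left of WT libraries. The hatched part of mt-Nd3 is larger on average in cKO (18.8% to 57.9% of the pair) than in WT (7.57% to 21.3%). These ranges overlap. The hatched part of mt-Co2 varies within both groups.

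Gm28439, a copy identical to 876 bases of mt-Nd4 and also named after its values were seen, was listed at 1848, 19.2, 0 and 2301 CPM in cKO and at 0 in all 4 WT libraries. The groups overlapped at 0 through cKO replicate 3, and the copy did not pass the filter on low counts and was not tested. With every messenger summed with its copy, all 13 messengers had positive log2 fold changes, from 0.19 to 0.70 with a median of 0.40. An unadjusted p under 0.05 was found for 8 of them, all higher in cKO, against 5.62% of all genes in that fit (2.16% higher and 3.46% lower). For 6 of the 13 every cKO library was above every WT library, mt-Nd4 being added to the 5 that did so alone. Among all genes tested without summing, 1.23% did so. Still 0 were called in edgeR, with a lowest adjusted p of 0.373. The 6 messengers that have no such copy (mt-Nd1, mt-Nd2, mt-Atp8, mt-Nd5, mt-Nd6 and mt-Cytb) were all positive without summing, with a median of 0.45.

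The ribosomal RNAs varied more within groups than between them. mt-Rnr2, the large-subunit RNA, stood at 17013, 33843, 22847 and 29693 CPM in cKO and at 25096, 15038, 25209 and 23313.5 CPM in WT. mt-Rnr1, the small-subunit RNA, stood at 3168, 6361, 5411 and 4892 CPM in cKO and at 4301, 2924, 5554 and 4029 CPM in WT. The groups overlapped for both, with log2 fold changes of 0.22 ± 0.23 for mt-Rnr2 (SE, edgeR adjusted p = 0.927) and 0.24 ± 0.23 for mt-Rnr1 (SE, edgeR adjusted p = 0.922). Per length, mt-Rnr2 exceeded mt-Rnr1 by a ratio of 3.17 ± 0.46 in cKO and 3.21 ± 0.37 in WT (SD, n = 4 each).

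Transfer RNA counts were low, and they were highest for genes annotated on the minus strand. Because the use of strand in counting is not stated, these counts may include RNA of the opposite strand. The 4 with the highest mean CPM, mt-Te, mt-Ts1, mt-Tp and mt-Tc, are all on the minus strand. mt-Te (chrM:14071-14139, minus strand), the glutamate transfer RNA, lies directly next to mt-Nd6, and mt-Ts1 (chrM:6870-6938, minus strand), a serine transfer RNA, lies opposite the end of mt-Co1. Both are shown because they gave the most transfer RNA counts and went in opposite directions, with the 3 bases of mt-Ts1 that are also the complement of the end of mt-Co1 in capitals.
mt-Te: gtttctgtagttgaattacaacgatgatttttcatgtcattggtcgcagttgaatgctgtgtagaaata
mt-Ts1: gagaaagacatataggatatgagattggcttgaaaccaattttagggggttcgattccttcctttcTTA

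mt-Te stood at 244, 314, 342 and 319 CPM in cKO, against 204, 221, 216 and 221 CPM in WT. Every cKO library was above every WT library, at a log2 fold change (± SE) of 0.50 ± 0.12 and an edgeR adjusted p of 0.493. mt-Ts1 stood at 130.2, 71.1, 127 and 62.3 CPM in cKO, against 182, 219, 373 and 219.8 CPM in WT. It was the only gene of the 34 with every cKO library below every WT library, where 2.27% of all genes were, and its log2 fold change was -1.35 ± 0.32 (SE, edgeR adjusted p = 0.708). mt-Tp, the proline transfer RNA, stood at 72.4, 105, 97.1 and 88.1 CPM in cKO and at 126, 98.4, 85.2 and 97.2 CPM in WT. mt-Tc, the cysteine transfer RNA, stood at 54.7, 100.2, 109.8 and 91.4 CPM in cKO and at 70.7, 61.9, 28.1 and 62.9 CPM in WT. The groups overlapped for both, with log2 fold changes of -0.17 for mt-Tp (edgeR adjusted p = 0.914) and 0.67 for mt-Tc (edgeR adjusted p = 0.886).

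By annotated strand, 6 of the 8 minus-strand transfer RNAs were positive, with a median log2 fold change of 0.49. Of the 11 plus-strand transfer RNAs tested, 3 were positive and 8 negative, with a median of -0.07. The transfer RNAs with an unadjusted p under 0.05 were mt-Tl1, mt-Tm, mt-Tn, mt-Ty and mt-Te, higher in cKO, and mt-Ts1 and mt-Tg, lower in cKO; those beyond the 4 above are named because of these values. mt-Ty, the tyrosine transfer RNA, had the highest log2 fold change of the 34, 0.85 ± 0.19 (SE, edgeR adjusted p = 0.493), with 43.1, 59.5, 69.6 and 65.5 CPM in cKO and 40.6, 31.1, 23.1 and 37.2 CPM in WT. mt-Tv, mt-Td and mt-Tk had at most 12.3 estimated counts in any library and were not tested.

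Mitochondrial RNA took a larger share of the cKO libraries. All 37 genes held 26.8%, 31.7%, 31.2% and 31.3% of counts in cKO, and 25.3%, 24.7%, 27.2% and 27.8% in WT. The means were 30.2% ± 2.31 in cKO and 26.2% ± 1.48 in WT (SD, n = 4 each), 4.00 percentage points apart, and the groups overlapped through cKO replicate 1. Messengers made up 27.2% ± 1.67 in cKO and 23.4% ± 1.16 in WT, ribosomal RNAs 2.94% ± 0.764 in cKO and 2.74% ± 0.623 in WT, and transfer RNAs 0.0842% ± 0.0085 in cKO and 0.0871% ± 0.0063 in WT (SD, n = 4 each). The messenger share alone thus differed by 3.80 percentage points. With the nuclear copies added, messengers made up 26.02%, 29.9%, 29.4% and 29.4% in cKO, above 23.4%, 24.3%, 24.5% and 25.8% in WT, and the groups no longer overlapped. Minus-strand genes together held 0.492% of counts in cKO and 0.473% in WT, or 1.63% and 1.80% of the mitochondrial counts in cKO and WT. The shares are sums over genes that were chosen together and were not tested.

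**Figure D4:**
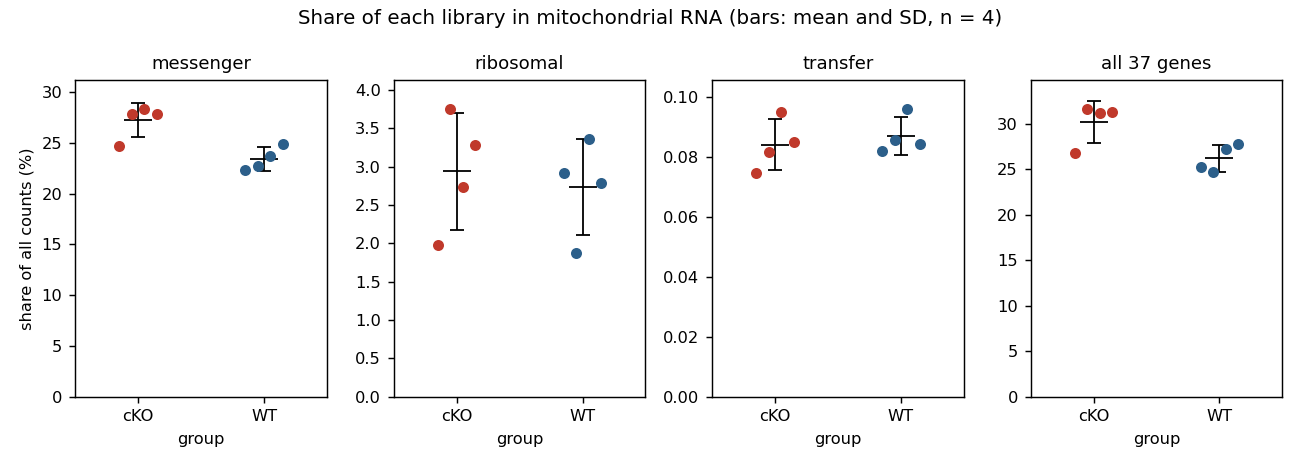
Share of all counts (%) held by messengers, ribosomal RNAs, transfer RNAs and all 37 mitochondrial genes, 1 point per library, with mean and SD (n = 4), cKO left of WT. The messenger share is 27.2% in cKO and 23.4% in WT on average, with cKO replicate 1 (24.7%) just below the highest WT library (24.9%), and both other classes overlap between the groups.

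Muscle markers differed between libraries beside this share, and their part in it was not tested. All 14 muscle markers had positive log2 fold changes, with a median of 0.59, and 0 of them had an unadjusted p under 0.05. The most abundant were Myh4, a fast myosin heavy chain, at 1122 ± 1134 CPM in cKO and 733 ± 1028 CPM in WT, and Atp2a1, a calcium pump of fast muscle, at 758 ± 857 CPM in cKO and 527 ± 786 CPM in WT (SD, n = 4 each). No marker was at 0 in all libraries. cKO replicate 3, with the lowest muscle sum of its group (195 CPM), had the highest messenger share, 28.4%, and cKO replicate 1, with the highest muscle sum, had the lowest, 24.7%. In WT the ends ran the other way: WT replicate 1, with the lowest muscle sum (74.1 CPM), had the lowest messenger share, 22.3%, and WT replicate 4, with the highest (8844 CPM), had the highest, 24.9%. With a muscle score as a covariate in edgeR, 0 mitochondrial genes were called and 12 of 13 messengers were positive, with a median log2 fold change of 0.38. Without muscle markers in the denominator the share of all 37 genes differed by 4.04 percentage points. These markers summed to at most 11254 CPM in any library, so this step could hardly change the share. It leaves any mitochondrial RNA of muscle cells counted, so it cannot show the part of muscle.

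**Figure D5:**
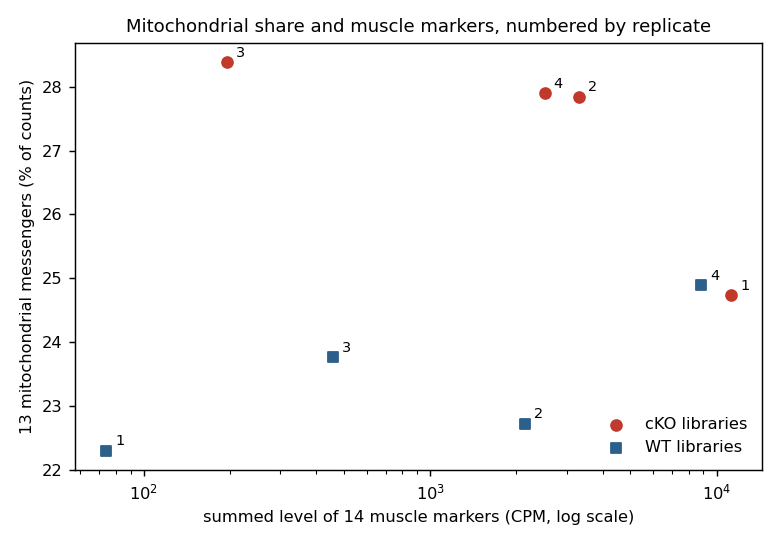
Share of counts held by the 13 messengers (%) against the summed level of 14 skeletal muscle markers (CPM, log axis) in each library, numbered by replicate, with cKO as circles and WT as squares. cKO replicates 2, 3 and 4 lie between 27.8% and 28.4% at muscle sums of 3320, 195 and 2512 CPM, and cKO replicate 1 and WT replicate 4 lie close together at the high muscle end.

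Within the messengers no proportion passed the test. Taking the sum of the 13 messengers as the library size, 0 of 13 were called in edgeR, where 7.18% of all genes were. The messengers make up this library size, so their changes centre near 0 by construction. The share over all genes is therefore no background for them. The messenger with the lowest p was mt-Atp8, which made up 4.08%, 4.53%, 3.59% and 4.10% of messenger counts in cKO, against 3.32%, 3.11%, 2.61% and 3.56% in WT. Every cKO library was above every WT library, and the log2 fold change was 0.37 ± 0.12 (SE, edgeR adjusted p = 0.0695). mt-Nd2 made up 6.80% ± 0.20 in cKO and 5.66% ± 0.883 in WT (SD, n = 4 each), and its groups did not overlap either (log2 fold change 0.26, edgeR adjusted p = 0.152). mt-Co1 held the largest part, 22.2% ± 1.72 in cKO and 24.3% ± 1.23 in WT (SD, n = 4 each), and its groups overlapped. With nuclear copies summed it held 22.4% ± 1.01 in cKO and 24.3% ± 0.402 in WT (SD, n = 4 each). Every cKO library was then below every WT library (log2 fold change -0.12, edgeR adjusted p = 0.366). WT replicate 3 stood apart in composition, with the highest mt-Co2 (12.1%) and mt-Nd3 (1.68%) and the lowest mt-Nd5 (2.76%) and mt-Nd4l (0.673%) of all libraries.

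Relative to the messengers, 2 of the 21 ribosomal and transfer RNAs tested were called, both lower in cKO, where 7.18% of all genes were called, so the count is near the background. The log2 fold change was -1.66 for mt-Ts1 (edgeR adjusted p = 0.0468) and -0.50 for mt-Tp (edgeR adjusted p = 0.0467). limma-voom and the fit with a replicate block called mt-Ts1 but not mt-Tp. Neither was called when any of cKO replicates 2, 3 and 4 or WT replicates 1, 2 and 3 was left out. The number of genes of any kind called on this scale ran from 9 without cKO replicate 4 to 3925 without cKO replicate 1.

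Levels of different genes were compared per kilobase of annotated length. Over all 8 libraries mt-Atp6 and mt-Atp8 had the highest means, at 52409 ± 5557 and 56745 ± 7299 CPM per kb in cKO and 40840.3 ± 2554 and 35033 ± 6207 CPM per kb in WT (SD, n = 4 each). In WT alone mt-Co1, at 35501 ± 3059 CPM per kb (SD, n = 4), was above mt-Atp8. mt-Co1, mt-Co3, mt-Co2, mt-Cytb, mt-Nd4, mt-Nd2, mt-Nd1, mt-Nd4l, mt-Nd6, mt-Nd3 and mt-Nd5 followed in that order of their mean over all libraries. mt-Nd5, with the lowest mean over all libraries, stood at 8105 ± 792 CPM per kb in cKO and 5989 ± 1921 CPM per kb in WT (SD, n = 4 each). In cKO mt-Nd3 without its nuclear copy was lower than mt-Nd5, at 6838 ± 2649 CPM per kb (SD, n = 4). The steps from mt-Cytb to mt-Nd4 and from mt-Nd4 to mt-Nd2 held in 8 of 8 libraries. No other step held in all libraries. The order was kept in 7 of 8 libraries for mt-Co1 over mt-Co3, mt-Nd2 over mt-Nd1 and mt-Nd4l over mt-Nd6, in 6 of 8 for mt-Atp8 over mt-Co1 and mt-Co3 over mt-Co2, and in 5 of 8 for mt-Nd1 over mt-Nd4l and mt-Nd6 over mt-Nd3. It was kept in 4 of 8 for mt-Atp6 over mt-Atp8, and in 3 of 8 for mt-Co2 over mt-Cytb and mt-Nd3 over mt-Nd5. With nuclear copies summed, mt-Co2 was above mt-Co3 and mt-Co3 above mt-Cytb in 8 of 8 libraries. The place of mt-Nd3 also depended on its copy. Summed, it stood at 12243 ± 2680 CPM per kb in cKO and 8827 ± 1703 in WT (SD, n = 4 each). These means were above those of mt-Nd6 and mt-Nd5 in both groups.

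Genes that share a messenger did not have equal estimated counts per length. Reads in their overlaps cannot be assigned with certainty, so these ratios do not show that the RNA levels differ. mt-Atp8 over mt-Atp6 per length was 1.12, 1.14, 0.950 and 1.12 in cKO, and 0.911, 0.877, 0.633 and 1.03 in WT. mt-Nd4l over mt-Nd4 per length was 0.770, 0.712, 0.581 and 0.783 in cKO, and 0.713, 0.651, 0.349 and 0.667 in WT. Both ratios were lowest in replicate 3 of each group, and the groups overlapped. mt-Nd6 over mt-Nd5 per length, the ratio of the messengers that overlap on opposite strands, was 1.05 ± 0.134 in cKO and 1.32 ± 0.375 in WT (SD, n = 4 each).

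Most nuclear genes of the same complexes had negative log2 fold changes. Of 77 nuclear subunits of complexes I, III, IV and V, 0 were called in edgeR and 18 had an unadjusted p under 0.05, all lower in cKO. A negative log2 fold change was found for 58 of the 77, and the median was -0.14. Over all genes 5.60% had an unadjusted p under 0.05 (3.45% lower in cKO), and 51.8% had a positive log2 fold change. Every cKO library was below every WT library for 6 complex I, 4 complex IV and 1 complex V subunits, against 2.27% of all genes. Complex I subunits were negative for 28 of 36 (median -0.19), complex IV for 12 of 15 (median -0.16), complex V for 12 of 17 (median -0.05) and complex III for 6 of 9 (median -0.08). Ndufv1, an abundant complex I gene of the peripheral arm, stood at 585 ± 55.7 CPM in cKO and 664 ± 20.1 CPM in WT (SD, n = 4 each), with a log2 fold change of -0.18 and an edgeR adjusted p of 0.890. Cox4i1 and Cox6a1 of complex IV stood at 883 ± 113 and 768 ± 83.5 CPM in cKO and at 989 ± 146 and 1043 ± 139.7 CPM in WT (SD, n = 4 each). Every Cox6a1 level in cKO was below every one in WT, and the fold change was -0.44 on the log2 scale (edgeR adjusted p = 0.784).

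The abundant subunits of the other complexes had small fold changes. Uqcrc1 and Uqcrc2, core proteins of complex III, had log2 fold changes of -0.04 and 0.11 (edgeR adjusted p = 0.976 and 0.944). Atp5b and Atp5a1, the catalytic head of ATP synthase, had -0.05 and -0.04 (edgeR adjusted p = 0.972 and 0.976). Complex II, which has only nuclear subunits, had a median of 0.03 on the log2 fold scale over 4 genes, with 0.03 for Sdha and -0.09 for Sdhb, and 0 were called. The direction of mitochondrial against nuclear subunits is a comparison of lists that was not tested.

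Genes that make and keep mitochondrial RNA were not called either. The lists held 49 genes of mitochondrial transcription, RNA processing, RNA tailing and decay, DNA maintenance and biogenesis control. Of these, 0 were called in edgeR and 32 were positive, with a median log2 fold change of 0.08. An unadjusted p under 0.05 was found for 4, all higher in cKO. Named for that, they were Fastkd5 (log2 fold change 0.62), Fastkd2 (0.33), Ptcd2 (0.31) and Mtpap (0.33). Over all genes 5.60% had such a p (2.15% higher and 3.45% lower in cKO), and 51.8% were positive. The lists were not tested as sets. Among transcription genes 8 of 9 were positive (median 0.14). Polrmt, the mitochondrial RNA polymerase, stood at 34.6 ± 5.18 CPM in cKO and 35.9 ± 3.06 CPM in WT, with a log2 fold change of -0.05 (SD, n = 4 each; edgeR adjusted p = 0.976). Tfam, which packages and activates mitochondrial DNA, differed by 0.14 on the log2 scale (edgeR adjusted p = 0.923), and Tfb2m, which opens the promoter, one of 0.17 (edgeR adjusted p = 0.901). In RNA processing, 12 of 15 genes were positive (median 0.08), with values of 0.23 for Grsf1, a protein of mitochondrial RNA granules, and 0.00 for Fastk.

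Among genes of tailing, stability and decay, 5 of 7 were positive (median 0.19). Mtpap, the mitochondrial poly(A) polymerase, stood at 29.2 ± 4.86 CPM in cKO and 23.1 ± 3.72 CPM in WT, with a log2 fold change of 0.33 (SD, n = 4 each; edgeR adjusted p = 0.884). Lrpprc and Slirp, which together stabilise mitochondrial messengers, had log2 fold changes of 0.21 (edgeR adjusted p = 0.901) and -0.01 (edgeR adjusted p = 0.992). Rexo2, a nuclease for short RNA, had -0.03. DNA maintenance genes had a median of -0.05 over 12 genes, with -0.14 for Polg, the replicative polymerase, and 0.13 for Rrm2b. Nuclear regulators of biogenesis had a median of -0.13 over 6 genes, with -0.12 for Esrra and 0.19 for Gabpa.

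Summed marker levels of other cell types and of adipocytes overlapped between the groups. Macrophage markers summed to 41.6 to 92.5 CPM over 6 genes in cKO and 52.0 to 81.6 CPM in WT, with Lyz2 and Csf1r the highest. Endothelial markers summed to 428 to 516 CPM over 6 genes in cKO and 422 to 666 CPM in WT, led by Cdh5 and Kdr. Red blood cell markers summed to 577 to 922 CPM over 5 genes in cKO and 557 to 1022 CPM in WT, led by Hbb-bs and Hba-a2. General adipocyte markers, led by Fabp4 and Lipe, summed to 8221 to 11311 CPM in cKO and 9021 to 10645 CPM in WT. Ucp1 and Cidea, the most abundant brown adipocyte markers, had log2 fold changes of 0.30 (edgeR adjusted p = 0.898) and -0.13 (edgeR adjusted p = 0.937). Of the 8 brown adipocyte markers 0 were called in edgeR, and 3 had an unadjusted p under 0.05, where 5.60% of all genes did. Named for that, Zic1 was higher in cKO (log2 fold change 0.72), and Cox7a1 (-0.38) and Cox8b (-0.41) were lower. Cox7a1 and Cox8b also belong to the nuclear complex IV subunits counted above, so they are not separate results. Every Cox7a1 level in cKO was below every one in WT, as for 2.27% of all genes.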

How the data were processed

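RNA of 8 brown fat libraries was measured by paired-end sequencing. The authors deposited estimated counts per gene, and the submitters' processing notes name StringTie, Salmon, edgeR and GRCm38, with no role or version; the labels do not state the annotation or the use of strand. Estimated counts were rounded to whole numbers. Gene positions, lengths and sequences were taken from GENCODE release M21, in which 54131 of 54385 gene IDs were found (99.5%). 0 columns of the table were left unused.

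edgeR 4.0.16 (filterByExpr, TMM, quasi-likelihood test, two-sided) was fitted to all genes of 4 cKO and 4 WT libraries, with Benjamini-Hochberg adjustment over 14553 genes and a threshold of 0.05. limma 3.58.1 and DESeq2 1.42.0 served as alternatives, among those described in the closing section. A second edgeR fit took the sum of the 13 messengers as library size. CPM values are estimated counts over the TMM-scaled total of the genes kept by the filter, for all genes alike; shares use all counts of a library, with no such scaling. Nuclear copies were found from shared 31-base sequences. No 2 libraries of a group agreed within counting noise (lowest chi-square per degree of freedom 14.5). The fits were tested on simulated data. Intervals cover the spread between libraries.

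All messengers, both ribosomal RNAs, the 4 transfer RNAs with the highest mean CPM, the 2 nuclear copies with most counts, the 2 most abundant genes of each nuclear list and 6 genes of transcription and RNA tailing and stability were named by rule, except for 1 item that is not reported here. Members, lists and alternatives were chosen with earlier results of these data known.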

Additional observations from a re-analysis of the deposited data

Results flagged for a closer look

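In 5 of 90 groups of 4 values, 1 library lay far from the other 3, which is about what chance gives (1 in 20 groups). In cKO, replicate 1 had the lowest share of counts both for all 37 genes (26.8%) and for the messengers (24.7%), which contain most of the same counts. This library had the highest sum of muscle markers of its group (11254 CPM), whereas in WT the library with the highest sum, replicate 4 (8844 CPM), had the highest shares (27.8% and 24.9%). The part of muscle in this was not tested. In WT, replicate 3 was low for the asparagine transfer RNA mt-Tn (11.1 CPM) and high for mt-Co2 summed with its nuclear copy (28137 CPM). WT replicate 1 was high for the arginine transfer RNA mt-Tr (7.59 CPM).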

How the results depend on the processing

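The count of called mitochondrial genes stayed at 0 under every alternative except DESeq2 (6) and no filter on low counts (5: mt-Tl1, mt-Nd2, mt-Ty and mt-Atp8 higher, mt-Tg lower, of 93 calls over all genes), also without each library in turn (0 to 0), with the muscle covariate and with WT replicate 4 moved to cKO. The labels do not say whether the replicate numbers pair the libraries. The correlation of same-numbered deviations ran from -0.46 to 0.41, over 0.1 for 1 of 4 numbers. Differently numbered libraries reached 0.47 (cKO replicate 1 with WT replicate 4), so these few values cannot decide on a pairing. With the replicate block the count was 0, and within the messengers 2 were called (mt-Atp8 and mt-Nd3) in place of 0. Leaving out libraries gave 0 to 1 there, mt-Atp8 being called without WT replicate 4. The share difference of 4.00 points ran from 3.48 to 5.15 without each library and from 4.02 to 4.39 under the other alternatives. Of 34 genes, 28 kept their sign throughout. mt-Nd3 turned positive when summed with its copy (0.47; and 0.353, 0.412, 0.430, 0.438, 0.461, 0.483, 0.612 and 0.619 without each library) and, alone, without WT replicate 3 (-0.46 to 0.028 over libraries left out). mt-Tw turned negative with DESeq2 (-0.00495), no filter (-0.022) and WT replicate 4 moved (-0.13), and without libraries ran from -0.26 to 0.31. mt-Tf turned positive with WT replicate 4 moved (0.11). mt-Tr turned positive with quality weights (0.098) and the muscle covariate (0.20), and without libraries ran from -0.27 to 0.45. mt-Th did so with the muscle covariate (0.025) and ran from -0.22 to 0.13. mt-Tl2 did so with DESeq2 size factors (0.00227), nuclear scaling (0.00612) and the muscle covariate (0.058) and ran from -0.11 to 0.095. The causes were not tested. Depth limits the transfer RNAs, of which mt-Tw had 32.4 estimated counts in all cKO libraries together and 42.2 in all WT libraries.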
